A study of Homo sapiens with 38 samples.

Results

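Classical cadherins and EPCAM are the surface proteins that hold epithelial cells together, and 6 of their genes, CDH1, CDH2, CDH3, CDH6, CDH11 and EPCAM, were followed through WNT activation in human embryonic stem cells. They are 6 of the 43412 genes of the deposited count table, taken by symbol, and all 6 were among the 24304 genes with enough counts to be tested. Total RNA was sequenced from H9, an established human embryonic stem cell line, in 3 arms. In the first, cells received 10 µM CHIR99021, an inhibitor of the kinase GSK3 that spares beta-catenin from destruction, for 8, 16, 24, 48 or 72 h. In the second they received 240 ng/ml recombinant Wnt3a, a secreted WNT ligand, for 8, 24, 48, 72, 96 or 120 h. In the remaining arm, an H9 line with a stably integrated, doxycycline-regulated deltaN90 beta-catenin, a shortened and constitutively active form, received 1 µg/ml doxycycline for 8, 16, 24, 48 or 72 h. That arm is called bcat here, and the labels do not say whether the line is 1 clone. The 0 h cultures of each arm were undifferentiated and untreated, and those of the bcat arm carried the uninduced construct.

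Cadherins bind their own kind on neighbouring cells, and their tails hold beta-catenin, the same protein that carries the WNT signal to the nucleus. CDH1 encodes E-cadherin, the cadherin of epithelia and of pluripotent stem cells, and CDH3 encodes P-cadherin, which is often found beside it. EPCAM, the epithelial cell adhesion molecule, is no cadherin. It is abundant on pluripotent cells and carcinomas and can be cut to release a fragment that enters the nucleus. CDH2 encodes N-cadherin, which replaces E-cadherin as cells leave the epiblast through the primitive streak, a replacement called the cadherin switch. CDH11 and CDH6 are type II cadherins. CDH11 marks mesenchyme, and CDH6 is known from the developing kidney and the neural crest.

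Treatment began with a change of medium, from mTESR1 to RPMI1640 and B27 without vitamin A, 16 h after seeding at full density, and no culture received the new medium alone. Treatment, medium and elapsed time therefore cannot be told apart in a change from 0 h. Each of the 19 groups had 2 libraries labelled as biological replicates, without saying what was separate between them, so p-values measure only the spread between these libraries. The columns of both Wnt3a 72 h libraries were identical in all 43412 genes and were counted as 1 library, which left 37. The median library held 19.0 M (mega) estimated counts, the shallowest, Wnt3a 0 h replicate 1, 2.45 M, and the deepest, Wnt3a 0 h replicate 2, 65.7 M. Cytosolic ribosomal RNA took 34.1% of bcat 0 h replicate 1, 60.4% of bcat 24 h replicate 1 and 60.3% of bcat 48 h replicate 2, against a median of 5.14%. These 3 libraries and Wnt3a 0 h replicate 1 are the 4 libraries in doubt. The lowest count of a member in any library was 4 for CDH6 and 12 for CDH11, and at least 70 for the other 4 genes. The 6 pluripotency markers were all detected at 0 h, with a summed level of 4476 to 5506 CPM, counts per M counts of the scaled library. CTNNB1, the gene of beta-catenin, was higher at bcat 72 h, 2251 CPM against 701 CPM at 0 h, a log2 change of 1.68 ± 0.10 (standard error, adjusted p = 9.41e-14), and reads of the construct and the resident gene are not separated in these counts.

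By GENCODE release 29 on GRCh38, which need not be the authors' build, CDH1 (ENSG00000039068.18) lies at chr16:68737225-68835548 on the plus strand. CDH3 lies at chr16:68636189-68722616 on the same strand and ends 14608 bases before CDH1 begins, with 0 genes between them. CDH11 lies at chr16:64943753-65126112 on the minus strand, CDH2 at chr18:27950966-28177446 on the minus strand, CDH6 at chr5:31193750-31329146 on the plus strand and EPCAM at chr2:47345158-47387601 on the plus strand. Each gene overlaps 1 to 3 small annotated genes, mostly pseudogenes, small RNAs and antisense transcripts, and the counts do not say on which strand reads were assigned. Of the 6 genes, CDH2 matched the table of promoter windows from RefSeq on GRCh38.p14, which gives 250 bases before to 50 bases after a start. Its 2 windows are shown because CDH2 rose in all 3 arms. The first spans chr18:28177081-28177380 and the second, at a start further inside the gene, chr18:28036592-28036891. Both are on the minus strand and printed 5′ to 3′ in the direction of transcription. Both lie within the GENCODE span of CDH2, with starts 316 and 56 bases from the nearest GENCODE start. Capitals mark CCAAT, or its reverse complement ATTGG, and TATAAA.
CDH2 window 1: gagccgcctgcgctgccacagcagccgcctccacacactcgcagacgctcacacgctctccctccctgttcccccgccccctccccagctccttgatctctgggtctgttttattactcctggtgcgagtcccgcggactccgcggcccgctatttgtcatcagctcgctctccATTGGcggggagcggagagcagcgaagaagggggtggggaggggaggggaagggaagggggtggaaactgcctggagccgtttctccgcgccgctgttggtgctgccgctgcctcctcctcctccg
CDH2 window 2: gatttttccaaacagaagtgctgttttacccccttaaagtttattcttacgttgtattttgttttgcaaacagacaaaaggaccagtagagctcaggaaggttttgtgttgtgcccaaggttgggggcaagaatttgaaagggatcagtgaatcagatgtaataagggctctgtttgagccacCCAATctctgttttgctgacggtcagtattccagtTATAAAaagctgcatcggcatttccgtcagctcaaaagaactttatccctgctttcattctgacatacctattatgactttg
The first window is 67.0% G and C and holds ATTGG from position 175. The second is 40.7% G and C and holds CCAAT from position 184 and TATAAA from position 219. Both strands were searched for 4 motifs: CTTTGA, the core bound by the TCF and LEF partners of beta-catenin; CACCTG, the E-box bound by SNAI and ZEB repressors; CCAAT; and TATAAA. Neither CTTTGA nor CACCTG is written in these windows. Of 35116 RefSeq windows of the same length, 12.9% hold CTTTGA, 20.6% CACCTG, 34.6% CCAAT and 11.5% TATAAA on either strand.

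In undifferentiated cells the order of the 6 genes was the same in all 3 arms. Levels of different genes are compared per kilobase of the principal transcript (CPM per kb), with lengths from GENCODE. EPCAM was highest, at 76.5 and 79.2 CPM per kb in the CHIR99021 arm, 65.5 and 83.7 in the Wnt3a arm and 125.5 and 143 in the bcat arm. CDH1 followed, at 45.3 to 53.7, 33.5 to 40.9 and 52.6 to 63.8 CPM per kb in the same arms. CDH3 lay at 23.2 to 32.3 CPM per kb over all 6 libraries at 0 h, CDH2 at 5.23 to 9.48, CDH11 at 0.566 to 2.02 and CDH6 at 0.139 to 0.759. Within each arm no library of 1 gene overlapped the next gene in this order. Epithelial genes thus led at 0 h and the type II cadherins were at the low end.

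At the end of treatment CDH2 was the highest or among the highest of the 6. At CHIR 72 h it stood at 111 and 97.0 CPM per kb, above CDH11 at 37.7 and 29.4 and EPCAM at 29.7 and 33.0, which overlapped each other, while CDH1 had 21.4 and 21.7. At bcat 72 h CDH2 had 88.5 and 81.8 CPM per kb, CDH11 22.3 and 27.1, EPCAM 22.02 and 16.6, and CDH1 9.62 and 11.02. In the single Wnt3a 72 h library CDH2 had 76.0 CPM per kb and EPCAM 56.9. At Wnt3a 120 h EPCAM was highest, at 96.5 and 88.9 CPM per kb, above CDH2 at 87.8 and 77.0. CDH1 had 16.0 and 9.59 CPM per kb there, which overlapped CDH3 at 12.5 and 9.81. The plot of levels by hour shows each library.

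**Figure D1:**
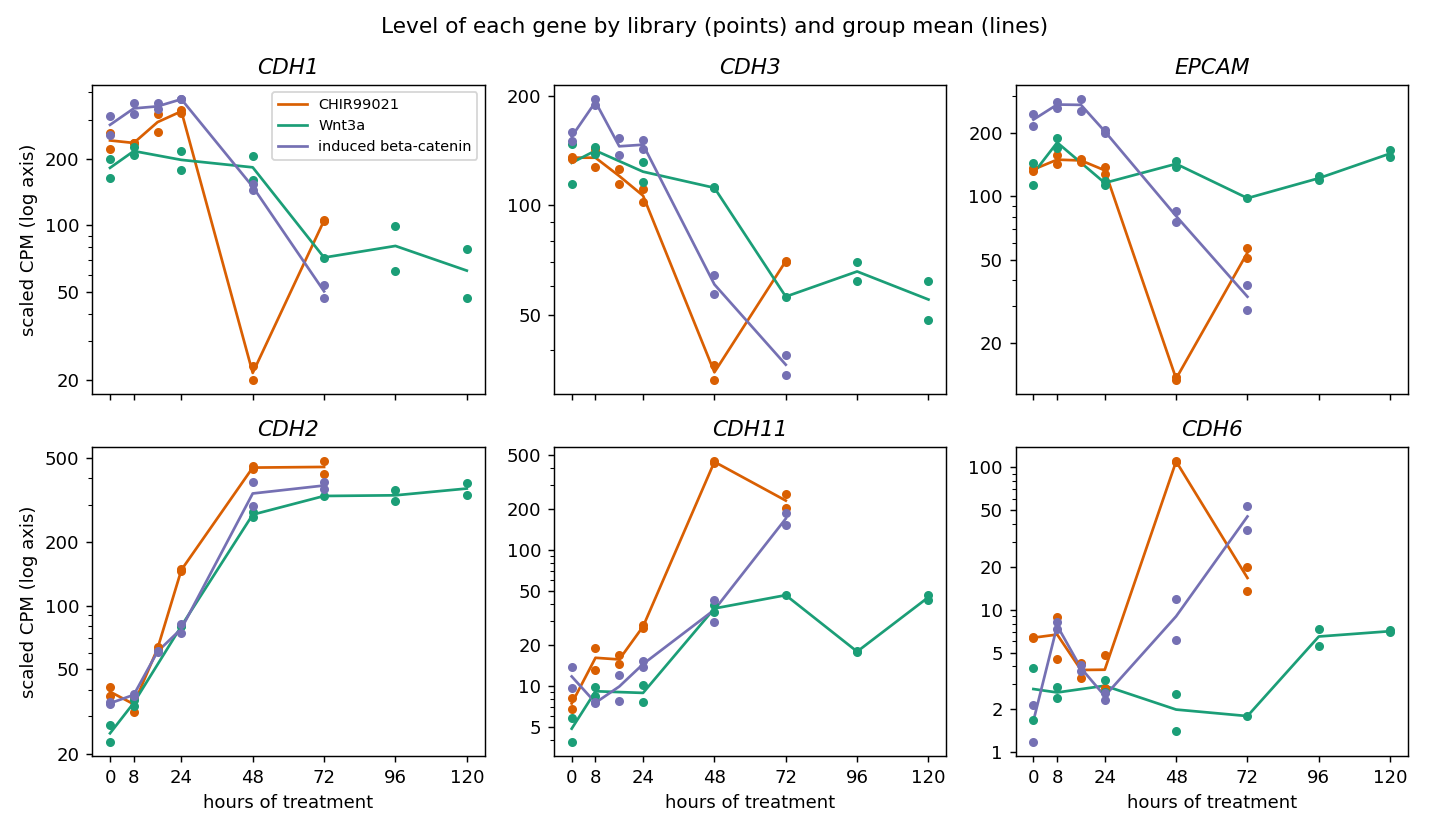
Level of each gene in scaled CPM on a log axis against hours of treatment, with 1 point per library and lines through the group means, for the CHIR99021, Wnt3a and bcat (induced beta-catenin) arms. CDH1 and EPCAM are lowest at CHIR 48 h, and the lowest libraries of CDH3 are those at CHIR 48 h and bcat 72 h, which overlap. EPCAM stays between 98.0 and 190 CPM in all treated Wnt3a libraries while CDH2 is at or above 261 CPM in all libraries from 48 h.

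CDH1 fell in all 3 arms, but not before 48 h. In the CHIR99021 arm its libraries had 263 and 221 CPM at 0 h, 236 and 235 at 8 h, 265 and 320 at 16 h and 323 and 332 at 24 h. It then had 20.003 and 23.2 at 48 h and 104 and 106 at 72 h. The 48 h libraries were far below all others of the arm, and those at 72 h lay between them and 0 h. Whether the labels of the 48 and 72 h cultures were exchanged was not tested, which bears on every CHIR99021 value at these hours. At 48 h the log2 change from 0 h was -3.49 ± 0.21 (11.2-fold lower, edgeR's quasi-likelihood test with Benjamini-Hochberg adjustment over all genes, adjusted p = 5.90e-13, n = 2 and 2), and at 72 h it was -1.20 ± 0.19 (adjusted p = 2.35e-05). Before the fall no change was called, and at 24 h the value was 0.44 ± 0.19 (adjusted p = 0.132). In a fit of the CHIR99021 libraries alone the difference at 24 h was called at 0.49, and DESeq2's Wald test called it at 0.49 too.

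With Wnt3a CDH1 had 164 and 200 CPM at 0 h, 208 and 225 at 8 h, 179 and 217 at 24 h and 161 and 205 at 48 h. It had 71.7 CPM in the single library at 72 h, 99.5 and 62.2 at 96 h and 78.3 and 46.9 at 120 h. All libraries from 72 h lay below all earlier ones. Tests of the 72 h library take their spread from the other groups. The change was -1.36 ± 0.25 at 72 h (adjusted p = 2.62e-04), -1.18 ± 0.19 at 96 h (adjusted p = 2.18e-05) and -1.55 ± 0.20 at 120 h (2.93-fold lower, adjusted p = 1.07e-06). At 48 h, when CDH2 was already up, it was -0.00 ± 0.19 (adjusted p = 1).

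In the bcat arm CDH1 had 312 and 257 CPM at 0 h, 358 and 317 at 8 h, 356 and 334 at 16 h, 371 and 372 at 24 h, 145 and 155 at 48 h and 47.0 and 53.9 at 72 h. It was lower at both late hours, with changes of -0.92 ± 0.19 at 48 h (adjusted p = 8.01e-04) and -2.49 ± 0.21 at 72 h (5.63-fold lower, adjusted p = 4.76e-10). The call at 48 h was lost without the 4 libraries in doubt, where the value was -0.81. In bulk RNA, fewer cells that express a gene and less RNA per cell cannot be told apart, here and in every result below.

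CDH3 fell with CDH1, over a smaller range. Across all 37 libraries CDH3 spanned 5.94-fold (33.0 to 196 CPM) and CDH1 spanned 18.6-fold (20.003 to 372 CPM). CDH3 had 36.5 and 33.0 CPM at CHIR 48 h and 70.5 and 70.0 at CHIR 72 h, against 135 and 136 at 0 h of that arm. These are log2 changes of -1.96 ± 0.12 (adjusted p = 8.86e-14) and -0.95 ± 0.12 (adjusted p = 3.13e-07). A change of -0.35 ± 0.12 at CHIR 24 h was at the threshold (adjusted p = 0.0496), and the call was lost, at -0.29 to -0.41, on leaving out either 0 h or either 24 h library. With Wnt3a CDH3 had 56.1 CPM at 72 h, 69.7 and 61.9 at 96 h and 61.8 and 48.4 at 120 h, against 114 and 147 at 0 h, and every late library lay below both untreated ones. The changes were -1.24 ± 0.16, -1.01 ± 0.12 and -1.27 ± 0.12 (adjusted p = 5.59e-07, 9.48e-08 and 2.98e-09). At Wnt3a 48 h it was -0.25 ± 0.12 (adjusted p = 0.190). With induced beta-catenin CDH3 had 64.3 and 57.0 CPM at 48 h and 34.2 and 38.7 at 72 h, against 150 and 159 at 0 h, changes of -1.35 ± 0.13 (adjusted p = 1.17e-09) and -2.09 ± 0.13 (adjusted p = 1.15e-13).

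EPCAM parted from CDH1 in the Wnt3a arm. With Wnt3a it had 113 and 144 CPM at 0 h, 190 and 171 at 8 h, 113 and 118 at 24 h, 147 and 138 at 48 h, 98.0 at 72 h, 124 and 120 at 96 h and 166 and 153 at 120 h. The values moved within a narrow band, and at 120 h both libraries were above both untreated ones. The log2 change was 0.47 ± 0.12 at 8 h (adjusted p = 0.0213), which was not called without Wnt3a 0 h replicate 1, at 0.32, or without Wnt3a 8 h replicate 1, at 0.39. It was -0.17 ± 0.12 at 24 h (adjusted p = 0.358), 0.13 ± 0.12 at 48 h (adjusted p = 0.559). Later it was -0.41 ± 0.15 at 72 h (adjusted p = 0.0565), -0.10 ± 0.12 at 96 h (adjusted p = 0.558) and 0.29 ± 0.12 at 120 h (adjusted p = 0.0680). The values at 72 and 120 h were close to the threshold and crossed it under some settings, as -0.55 at 72 h without Wnt3a 0 h replicate 1 and 0.50 at 120 h without Wnt3a 0 h replicate 2. The step from 8 to 24 h, -0.64 ± 0.12 (adjusted p = 1.58e-04), was called also on leaving out each of its libraries. Between later consecutive hours EPCAM was lower at 72 h than at 48 h, with a step of -0.54 ± 0.15 (adjusted p = 0.0441, not called without Wnt3a 48 h replicate 1, at -0.50). It rose again at 120 h against 96 h, by 0.39 ± 0.12 (adjusted p = 0.0164, not called without Wnt3a 96 h replicate 1, at 0.42, or Wnt3a 120 h replicate 1, at 0.35). In a fit of the Wnt3a libraries alone neither of these later steps was called, at -0.55 and 0.39.

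In the other arms EPCAM fell as CDH1 did. It had 132 and 136 CPM at 0 h, 157 and 142 at 8 h, 145 and 151 at 16 h, 127 and 139 at 24 h, 13.9 and 13.3 at 48 h and 51.1 and 56.9 at 72 h of CHIR99021. The log2 change was -3.30 ± 0.13 at 48 h (9.86-fold lower, adjusted p = 2.62e-18) and -1.32 ± 0.12 at 72 h (adjusted p = 5.17e-10). Induced beta-catenin gave it 216 and 247 CPM at 0 h, 264 and 282 at 8 h, 290 and 254 at 16 h, 208 and 200 at 24 h, 85.4 and 75.8 at 48 h and 37.96 and 28.7 at 72 h. There the change was -1.52 ± 0.12 at 48 h (adjusted p = 6.27e-11) and -2.79 ± 0.13 at 72 h (6.93-fold lower, adjusted p = 2.07e-16).

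Tested directly, the change of EPCAM at 72 h with CHIR99021 minus that with Wnt3a was -0.91 ± 0.19 (adjusted p = 0.00118). With Wnt3a minus bcat it was 2.38 ± 0.19 (adjusted p = 1.88e-10). Wnt3a 72 h has 1 library and no spread of its own, and these tests assume that it varies as the other groups do. For CDH1 the same comparisons at 72 h gave 0.16 ± 0.30 (adjusted p = 0.866) and 1.14 ± 0.30 (adjusted p = 0.0127). The second was not called without bcat 0 h replicate 1, at 0.95, bcat 72 h replicate 1, at 1.04, or the 4 libraries in doubt, at 0.89. The log2 ratio of EPCAM to CDH1, relative to the mean of the untreated libraries of the same arm, was 0.96 at Wnt3a 72 h, 0.83 and 1.45 at 96 h and 1.59 and 2.21 at 120 h. In all treated libraries of the CHIR99021 and bcat arms it lay between -0.73 and 0.32.

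Markers of definitive endoderm, an epithelial derivative of the streak that is known to carry EPCAM, were highest in the Wnt3a arm from 48 h. The summed level of SOX17, FOXA2 and GATA6 was 45.7 and 57.6 CPM at Wnt3a 48 h, 135 at 72 h, 149 and 221 at 96 h and 139 and 229.6 at 120 h. All 3 genes were detected there, and the sum was 0.103 and 0.323 CPM at Wnt3a 0 h. It was 5.66 and 9.24 CPM at CHIR 72 h, where SOX17 had 0 counts, and 5.42 and 8.54 at bcat 72 h. The sum did not follow EPCAM from hour to hour. At Wnt3a 48 h the log2 ratio of EPCAM to CDH1 had changed by 0.37 and -0.06 from 0 h. From 48 h to the single library at 72 h the sum rose while EPCAM fell, from 147 and 138 to 98.0 CPM. At 120 h the sum overlapped that at 96 h, while the ratio was higher. The list of amnion and surface ectoderm (GATA3, TFAP2A, ISL1, KRT7 and TP63), also epithelial, summed to 34.0 and 36.1 CPM at Wnt3a 120 h with 5 of 5 detected, against 2.91 and 3.16 at 0 h, where GATA3 had 0 counts. Before that it was 1.70 CPM in the library at Wnt3a 72 h, with TFAP2A at 0 counts, and 6.73 and 7.80 at 96 h. At bcat 0 h it was 6.53 and 8.82 CPM. The part of these markers in the EPCAM result was not tested.

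**Figure D2:**
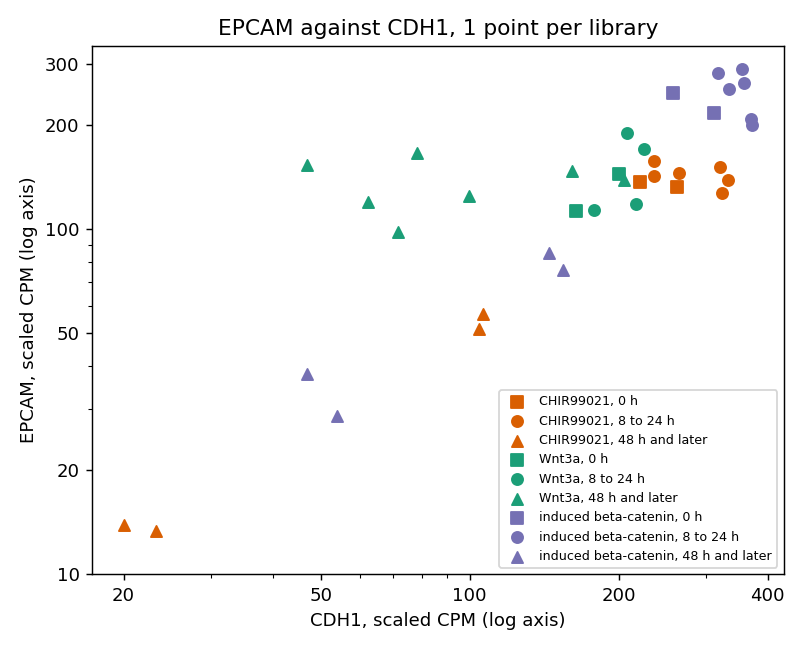
EPCAM against CDH1 in scaled CPM, both axes log, with 1 point per library, colours for the arms and shapes for the period. From 48 h EPCAM lies between 13.3 and 85.4 CPM in the CHIR99021 and bcat libraries, while the 5 Wnt3a libraries from 72 h have EPCAM between 98.0 and 166 CPM with CDH1 between 46.9 and 99.5 CPM.

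CDH2 rose in all 3 arms and was called at earlier hours than the fall of CDH1. In the CHIR99021 arm it had 37.3 and 41.1 CPM at 0 h, 36.8 and 31.6 at 8 h, 61.5 and 64.0 at 16 h, 149 and 145 at 24 h, 457 and 439 at 48 h and 483 and 420 at 72 h. Both libraries were above both untreated ones from 16 h on. The log2 change was 0.68 ± 0.12 at 16 h (adjusted p = 8.80e-05), 1.91 ± 0.12 at 24 h (adjusted p = 2.57e-13), 3.51 ± 0.12 at 48 h (11.4-fold, adjusted p = 1.25e-19) and 3.52 ± 0.12 at 72 h (adjusted p = 1.78e-19). With Wnt3a it had 22.6 and 27.2 CPM at 0 h, 33.5 and 35.9 at 8 h, 80.2 and 79.9 at 24 h, 277 and 261 at 48 h, 329 at 72 h, 352 and 311 at 96 h and 380 and 334 at 120 h. It rose by 1.63 ± 0.13 at 24 h (adjusted p = 8.84e-11), 3.38 ± 0.13 at 48 h (adjusted p = 9.73e-18) and 3.79 ± 0.13 at 120 h (13.8-fold, adjusted p = 7.88e-19). The bcat libraries of CDH2 had 34.1 and 35.0 CPM at 0 h, 38.3 and 37.5 at 8 h, 60.2 and 61.1 at 16 h, 81.6 and 73.8 at 24 h, 382 and 295 at 48 h and 383 and 354 at 72 h. It rose by 0.81 ± 0.13 at 16 h (adjusted p = 4.78e-05), 1.16 ± 0.13 at 24 h (adjusted p = 6.20e-08), 3.29 ± 0.13 at 48 h (9.78-fold, adjusted p = 1.14e-17) and 3.41 ± 0.13 at 72 h (adjusted p = 2.96e-18).

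The rise of CDH2 did not differ detectably between arms at 48 or 72 h. At 48 h the change with CHIR99021 minus that with Wnt3a was 0.13 (95% interval -0.21 to 0.48, adjusted p = 0.699), with CHIR99021 minus bcat 0.22 (-0.12 to 0.57, adjusted p = 0.432) and with Wnt3a minus bcat 0.09 (-0.27 to 0.45, adjusted p = 0.829). At 72 h the same differences were -0.15 (-0.53 to 0.23, adjusted p = 0.754), 0.11 (-0.24 to 0.46, adjusted p = 0.791) and 0.26 (-0.13 to 0.65, adjusted p = 0.449). Earlier, CDH2 was ahead with CHIR99021 against bcat at 24 h, by 0.74 ± 0.17 (adjusted p = 0.00851), a call lost at 0.67 without bcat 24 h replicate 2 and at 0.68 without CHIR 0 h replicate 1. The 6 markers of primitive streak and mesoderm were, like CDH2, above their untreated level at 48 h in every arm. Their summed level was 355 and 392 CPM at CHIR 48 h, 634 and 686 at Wnt3a 48 h and 209 and 271 at bcat 48 h. It was 1.47 to 2.43 CPM over the untreated libraries, where MSGN1 had 0 counts, as had MESP1 at bcat 0 h. At other hours of Wnt3a the sum did not follow CDH2. It was 89.2 and 96.7 CPM at 8 h and 18.8 and 21.4 at 24 h. Later it was 320 CPM in the library at 72 h, 134 and 154 at 96 h and 67.6 and 89.3 at 120 h. The markers' part in the rise of CDH2 was not tested. No step of CDH2 after 48 h was called, though with Wnt3a all 5 later libraries (311 to 380 CPM) lay above both 48 h libraries. Between 48 and 72 h its change was 0.01 ± 0.11 with CHIR99021 (adjusted p = 0.986), 0.29 ± 0.14 with Wnt3a (95% interval 0.02 to 0.57, adjusted p = 0.361) and 0.12 ± 0.11 in the bcat arm (adjusted p = 0.616).

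CDH11 had the widest range of the 6 genes, 116-fold over the 37 libraries, and rose in all 3 arms to different heights. With CHIR99021 it had 8.14 and 6.78 CPM at 0 h, 19.1 and 13.2 at 8 h, 14.4 and 17.0 at 16 h, 26.6 and 28.2 at 24 h, 451 and 435 at 48 h and 258 and 202 at 72 h. It was the 1 member that rose as early as 8 h in this arm, by 1.14 ± 0.20 (2.20-fold, adjusted p = 1.40e-04), and at 48 h the log2 change was 5.90 ± 0.23 (59.8-fold, adjusted p = 3.58e-18). With Wnt3a it had 3.88 and 5.87 CPM at 0 h, 9.90 and 8.45 at 8 h, 7.66 and 10.2 at 24 h, 39.6 and 34.7 at 48 h, 46.5 at 72 h, 17.7 and 18.2 at 96 h and 43.2 and 46.8 at 120 h. At 24 h the change was 0.70 ± 0.24 (adjusted p = 0.0350), and its call was lost without Wnt3a 0 h replicate 1 (0.63), Wnt3a 0 h replicate 2 (1.22), Wnt3a 24 h replicate 2 (0.47) or the 4 libraries in doubt. Later changes were 2.74 ± 0.23 at 48 h (adjusted p = 5.62e-10) and 3.07 ± 0.25 at 72 h (adjusted p = 3.47e-10). They were 1.69 ± 0.23 at 96 h (adjusted p = 8.69e-07) and 3.02 ± 0.23 at 120 h (adjusted p = 4.08e-11). The libraries at 96 h lay below those before and after. That dip was called against both neighbours, at -1.37 ± 0.22 (96 h minus 72 h, adjusted p = 8.72e-05) and 1.33 ± 0.19 (120 h minus 96 h, adjusted p = 1.21e-05). The bcat libraries of CDH11 had 13.8 and 9.74 CPM at 0 h, 7.65 and 7.47 at 8 h, 12.1 and 7.81 at 16 h, 13.8 and 15.2 at 24 h, 43.03 and 29.7 at 48 h and 153 and 186 at 72 h. It rose there by 1.72 ± 0.24 at 48 h (adjusted p = 2.09e-06) and 3.92 ± 0.23 at 72 h (15.1-fold, adjusted p = 1.10e-13). The summed fibroblast markers COL1A1, COL1A2, DCN and LUM moved with CDH11 in some groups, at 389 and 399 CPM at CHIR 48 h, 179 and 199 at Wnt3a 48 h and 434 and 467 at bcat 72 h, against 122 to 179 CPM over the untreated libraries. LUM had 0 counts in these 3 treated groups. In other groups the sum did not follow CDH11. At CHIR 8 h it was 119 and 119.6 CPM, against 122 and 128 at CHIR 0 h, and at Wnt3a 120 h it was 121 and 157, against 125 and 125.5 at Wnt3a 0 h. It was also higher at bcat 72 h than at CHIR 48 h, where CDH11 was higher. The markers' part in the result was not tested.

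CDH6, the lowest of the 6 in untreated cells, reached its highest levels in the CHIR99021 and bcat arms. It had 6.43 and 6.31 CPM at CHIR 0 h, 8.90 and 4.50 at 8 h, 4.22 and 3.34 at 16 h, 4.78 and 2.81 at 24 h, 111 and 109 at 48 h and 19.8 and 13.7 at 72 h. The 48 h libraries stood alone, with a log2 change of 4.11 ± 0.31 (17.3-fold, adjusted p = 3.31e-11), and at 72 h the change was 1.41 ± 0.30 (adjusted p = 5.96e-04). In the bcat arm it had 1.18 and 2.14 CPM at 0 h (4 and 20 counts), 7.32 and 8.16 at 8 h, 4.08 and 3.71 at 16 h, 2.62 and 2.34 at 24 h, 11.9 and 6.14 at 48 h and 53.9 and 36.5 at 72 h. An early rise of 2.05 ± 0.45 at 8 h (adjusted p = 0.00169) was followed by lower values at 16 and 24 h, where no change was called. The change was 2.34 ± 0.45 at 48 h (adjusted p = 3.14e-04) and 4.61 ± 0.42 at 72 h (24.5-fold, adjusted p = 1.69e-09). Without bcat 0 h replicate 2, which leaves the 0 h library with 4 counts, the changes at 8, 48 and 72 h were 2.70, 2.99 and 5.26, and without bcat 48 h replicate 1 the change at 48 h was 1.73. With Wnt3a CDH6 had 3.88 and 1.67 CPM at 0 h, 1.41 to 3.20 from 8 to 72 h, 5.61 and 7.38 at 96 h and 6.94 and 7.21 at 120 h. Its changes were 1.73 ± 0.38 at 96 h (adjusted p = 6.23e-04) and 1.85 ± 0.39 at 120 h (adjusted p = 6.14e-04). Without Wnt3a 0 h replicate 2 these changes were 0.74 and 0.86 and not called. That fit leaves Wnt3a 0 h replicate 1, a library in doubt with 12 counts of CDH6. At Wnt3a 72 h, with 1 library, the change was -0.12 ± 0.48 (adjusted p = 0.922). The 4 neural crest markers SOX10, TFAP2B, PAX3 and FOXD3 were summed as well. They reached 36.6 and 37.9 CPM at CHIR 48 h, against 19.96 and 21.2 at CHIR 0 h, with SOX10 at 0 counts at 48 h. They reached 44.5 and 52.0 CPM at bcat 72 h, against 6.76 and 7.28 at bcat 0 h, with TFAP2B at 0 counts in both groups, and 4.99 and 6.42 CPM at Wnt3a 120 h, against 19.07 and 19.08 at Wnt3a 0 h. Their part in the CDH6 result was not tested.

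**Figure D3:**
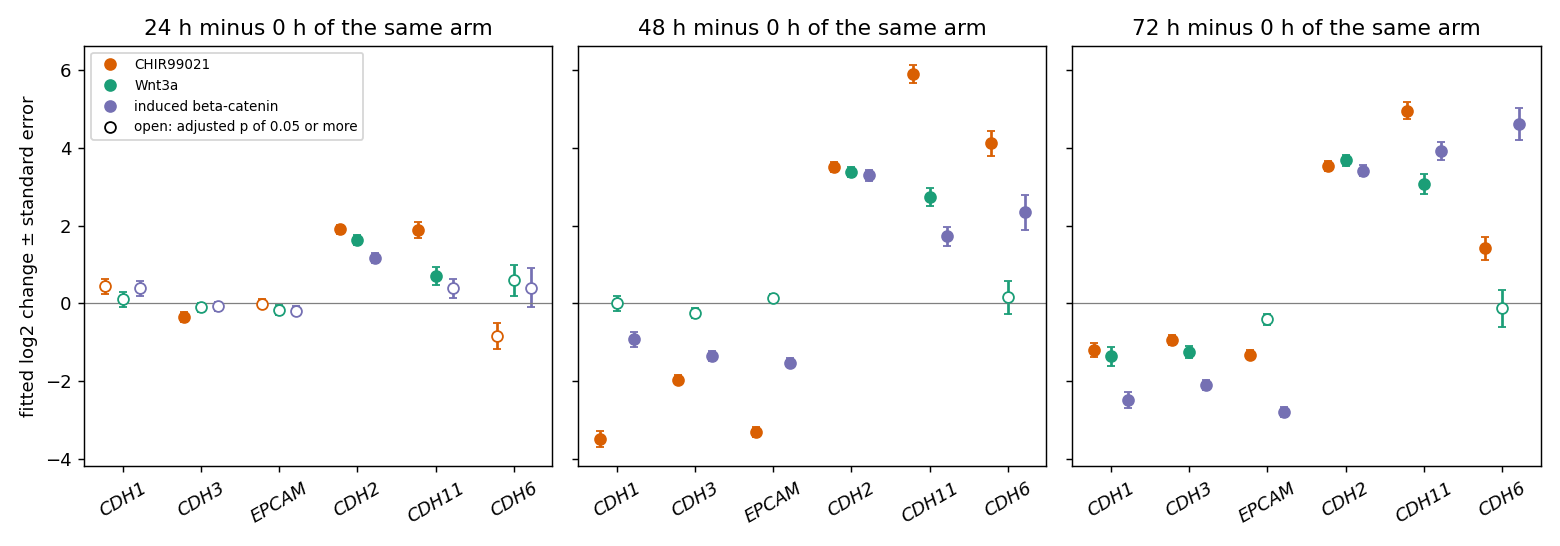
Fitted log2 change from 0 h of the same arm with its standard error for the 6 genes at 24, 48 and 72 h, filled where the adjusted p is below 0.05 and open where it is not. The 3 arms of CDH2 lie together at 48 and 72 h, while those of the other genes lie apart at 48 h, as for CDH1 between -3.49 with CHIR99021 and -0.00 with Wnt3a.

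Counted over genes and hours, 18 of 30 member changes were called with CHIR99021, 19 of 36 with Wnt3a and 15 of 30 in the bcat arm. With CHIR99021 1, 2, 3, 6 and 6 of the 6 genes were called at 8, 16, 24, 48 and 72 h, while 20.9%, 15.9%, 14.5%, 33.9% and 24.9% of all genes tested were. With Wnt3a 1, 2, 2, 4, 5 and 5 were called at 8, 24, 48, 72, 96 and 120 h, and 3.45%, 20.2%, 16.1%, 16.4%, 39.9% and 27.9% of all genes. With induced beta-catenin 1, 1, 1, 6 and 6 were called at 8, 16, 24, 48 and 72 h, and 18.7%, 10.9%, 12.8%, 21.3% and 27.3% of all genes. Up to 24 h between 1 and 3 of the 6 genes were called in every arm, and from 48 h in the CHIR99021 and bcat arms all 6 genes were called, 3 higher (CDH2, CDH11 and CDH6) and 3 lower (CDH1, CDH3 and EPCAM). With Wnt3a 2 were higher and 2 lower at 72 h and 3 and 2 at 96 and 120 h. Tests at different hours of an arm share its untreated libraries.

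The cadherin switch, read as the log2 ratio of CDH2 to CDH1 counts in the same library, does not depend on library scaling. The ratio was -2.81 and -2.43 in the untreated libraries of the CHIR99021 arm, -2.85 and -2.88 in those of the Wnt3a arm and -3.19 and -2.88 in those of the bcat arm. With CHIR99021 it was -1.11 and -1.19 at 24 h, 4.51 and 4.24 at 48 h and 2.21 and 1.98 at 72 h. With Wnt3a it was -1.16 and -1.44 at 24 h, 0.78 and 0.35 at 48 h, 2.20 at 72 h, 1.82 and 2.32 at 96 h and 2.28 and 2.83 at 120 h. In the bcat arm it was -2.18 and -2.33 at 24 h, 1.40 and 0.93 at 48 h and 3.03 and 2.72 at 72 h. The ratio turned positive between 24 and 48 h in all 3 arms, and per kilobase of transcript CDH2 (4332 bases) was also below CDH1 (4889 bases) in all libraries up to 24 h and above it in all from 48 h. With Wnt3a CDH2 alone of the pair was called at 48 h, while with CHIR99021 and in the bcat arm CDH1 was called as well. For CDH1 at 48 h the change with CHIR99021 minus that with Wnt3a was -3.49 ± 0.28 (adjusted p = 6.87e-10) and that with Wnt3a minus bcat 0.92 ± 0.27 (adjusted p = 0.0250). The second lost its call, at 0.71 to 0.87, without bcat 0 h replicate 1, bcat 48 h replicate 1, Wnt3a 0 h replicate 1, Wnt3a 48 h replicate 2 or all 4 libraries in doubt.

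**Figure D4:**
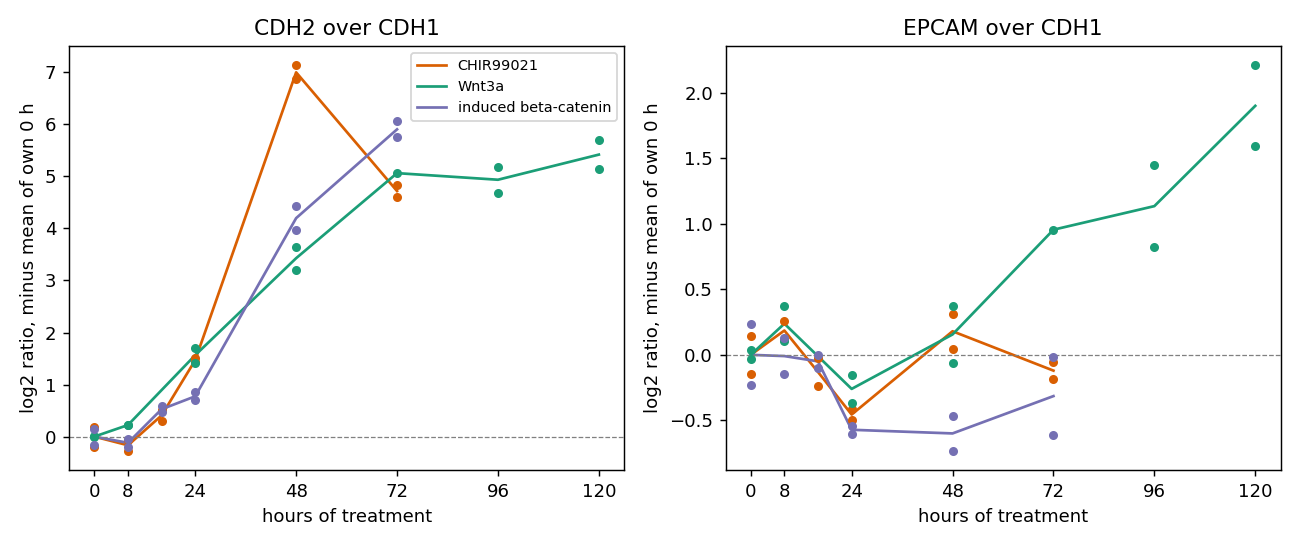
Change in the log2 ratio of CDH2 to CDH1 (left) and of EPCAM to CDH1 (right) from the mean of the untreated libraries of the same arm, against hours of treatment, with 1 point per library and lines through the group means. The left ratio climbs in all arms and is highest at CHIR 48 h, at 7.13 and 6.86, and the right ratio climbs in the Wnt3a arm to 1.59 and 2.21 at 120 h.

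At CHIR 72 h 5 of the 6 genes were nearer to their untreated level than at 48 h. Against 48 h, CDH1 was higher by 2.29 ± 0.20 (adjusted p = 1.19e-08), EPCAM by 1.98 ± 0.13 (adjusted p = 4.64e-12) and CDH3 by 1.01 ± 0.12 (adjusted p = 5.74e-07). CDH6 fell by 2.70 ± 0.29 (adjusted p = 1.83e-07) and CDH11 by 0.94 ± 0.18 (adjusted p = 4.03e-04) in the same step. In the bcat arm these genes moved further from 0 h between 48 and 72 h. CDH1 changed by -1.57 ± 0.20 (adjusted p = 1.22e-05), EPCAM by -1.27 ± 0.13 (adjusted p = 8.45e-08) and CDH3 by -0.74 ± 0.13 (adjusted p = 3.27e-04). CDH6 rose by 2.27 ± 0.31 (adjusted p = 2.12e-05, and 2.88 without bcat 48 h replicate 1) and CDH11 rose by 2.20 ± 0.19 (adjusted p = 1.52e-08). The summed pluripotency markers were 2199 and 2240 CPM at CHIR 72 h, against 1727 and 1765 CPM at CHIR 48 h and 4592 and 4653 at CHIR 0 h. Other marker sums moved further from 0 h in this step. Those of primitive streak and mesoderm were 609 and 670 CPM at 72 h, against 355 and 392 at 48 h and 1.76 and 2.43 at 0 h. Those of definitive endoderm were 5.66 and 9.24 CPM at 72 h, against 1.07 and 1.41 at 48 h. The markers' part in the step was not tested, and the cultures at 48 and 72 h were separate ones. Over all steps between consecutive hours 14 of 24 member steps were called with CHIR99021, 11 of 30 with Wnt3a and 13 of 24 in the bcat arm, against 14.5%, 16.7% and 6.11% of all genes and steps. In the step to 48 h all 6 genes were called with CHIR99021 and in the bcat arm, where CDH6 at 1.94 was called no longer without bcat 48 h replicate 1, at 1.33. With Wnt3a 2 were called in that step, CDH2 and CDH11. In the step to 72 h, which rests on 1 library at 72 h, CDH1, CDH3 and EPCAM were called. In a fit of the Wnt3a libraries alone the steps to 72 h of CDH1, at -1.36, and of EPCAM, at -0.55, were not called. Of all 24304 genes, 3095 were called higher and 3134 lower in the step to 48 h with CHIR99021. In the bcat arm these were 1128 and 1059. With Wnt3a they were 2433 and 2177 in that step and 383 and 213 in the step to 72 h.

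Between arms, differences in the members' responses were called most often at 48 h, in 15 of 18 gene and arm pairs, against 11 of 18 at 72 h. Both comparisons with Wnt3a at 72 h rest on its single library, so fewer calls there need not mean smaller differences. Over all 24304 genes, calls were also more frequent at 48 than at 72 h for both comparisons with CHIR99021. For CHIR99021 minus Wnt3a 1643 were higher and 2271 lower at 48 h, against 907 and 1279 at 72 h. For CHIR99021 minus bcat these were 1451 and 2565 against 780 and 972, and for Wnt3a minus bcat 1284 and 1662 against 1481 and 1405. Of the differences in change from 0 h, 9 of 24 were called for CHIR99021 minus Wnt3a, 14 of 30 for CHIR99021 minus bcat and 10 of 24 for Wnt3a minus bcat, against 9.93%, 6.83% and 11.2% of all genes over the same hours. The 3 sets share libraries and are not independent of each other. CDH11 was the gene most often called, in 10 of 13 comparisons, and CDH2 the least, in 2 of 13. At 48 h CDH11 had changed more with CHIR99021 than with Wnt3a by 3.17 ± 0.30 (adjusted p = 3.78e-09) and than in the bcat arm by 4.18 ± 0.32 (adjusted p = 1.63e-10). CDH6 had risen less at 72 h with CHIR99021 than in the bcat arm, with a difference of -3.20 ± 0.53 (adjusted p = 2.50e-04). With Wnt3a minus bcat the difference was -4.74 ± 0.65 (adjusted p = 9.02e-06). Without bcat 0 h replicate 2 these differences were -3.85 and -5.38, and without Wnt3a 0 h replicate 2 the second was -5.72. The order of the arms was not fixed. For CDH1 the change with CHIR99021 minus bcat was -2.56 ± 0.28 at 48 h (adjusted p = 2.12e-07), a deeper fall with CHIR99021, and 1.29 ± 0.27 at 72 h (adjusted p = 0.00333), a deeper fall in the bcat arm.

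The untreated cultures of the arms were not alike for these genes, so all changes are taken within an arm. EPCAM was higher in the uninduced bcat line, at 216 and 247 CPM, than in the untreated CHIR99021 arm, at 132 and 136 CPM, by 0.79 ± 0.12 (adjusted p = 1.84e-05). Against the untreated Wnt3a arm, at 113 and 144 CPM, it was higher by 0.83 ± 0.12 (adjusted p = 6.32e-06). CDH2 was higher in the untreated CHIR99021 arm than in the untreated Wnt3a arm by 0.61 ± 0.13 (adjusted p = 0.00151). CDH6 was lower in the bcat line than in the CHIR99021 arm, with a difference of -1.78 ± 0.45 (adjusted p = 0.00704). That call was lost without either bcat 0 h library, at -1.56 and -2.43. CDH6 was higher in the CHIR99021 arm than in the Wnt3a arm by 1.70 ± 0.38 (adjusted p = 0.00352), not called at 0.71 without Wnt3a 0 h replicate 2. Of 6 genes each, 2 were called for bcat minus CHIR99021, 4 for bcat minus Wnt3a and 2 for CHIR99021 minus Wnt3a, against 15.7%, 24.0% and 10.9% of all genes. The other 3 calls of bcat minus Wnt3a, of CDH1 at 0.63, CDH2 at 0.43 and CDH11 at 1.01, were lost without bcat 0 h replicate 1, at 0.45, 0.41 and 0.78. CDH1 and CDH2 lost them also without Wnt3a 0 h replicate 1, at 0.51 and 0.35, and CDH2 without bcat 0 h replicate 2, at 0.40. Line and arm cannot be told apart in these differences.

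Genes of the same pathways, from lists chosen with earlier results of these data known, are given by counts and medians. They are to be read against the share of all genes called at 72 h, which was 24.9% with CHIR99021, 16.4% with Wnt3a and 27.3% in the bcat arm, and 27.9% at Wnt3a 120 h. The median change of all genes at 72 h was 0.00, 0.01 and 0.06 in the same arms. Of 12 transcription factors listed as repressors of CDH1, some of them better known from mesenchyme or the streak, 11 were tested. Whether they act on CDH1 in these cells was not tested. With CHIR99021 7 rose and 0 fell at 72 h, with a median log2 change of 1.52 against 0.00 for all genes. With Wnt3a 6 rose and 0 fell at 72 h (median 2.79) and 6 rose and 1 fell at 120 h (median 2.35), against 0.01 and 0.00 for all genes. With induced beta-catenin 5 rose and 0 fell at 72 h (median 1.503 against 0.06 for all genes, or 1.35 with 2 genes that had 0 counts in a group set to a bound of 3 counts). ZEB2, which binds E-boxes of the CDH1 promoter, had 72.1 CPM at CHIR 72 h against 2.04 at 0 h, a change of 5.16 ± 0.26 (adjusted p = 4.95e-15). ZEB2 had 18.2 CPM at Wnt3a 72 h against 2.03 at 0 h (3.30 ± 0.31, adjusted p = 6.82e-09), and 121 CPM at bcat 72 h against 1 count in both 0 h libraries together. PRRX1, a mesenchymal homeobox factor, had 20.4 CPM at CHIR 72 h against 0.0992 at 0 h (6 counts), 0.315 CPM in the library at Wnt3a 72 h against 2 counts at 0 h, and 17.3 CPM at bcat 72 h against 1 count at 0 h. GSC, a factor of the anterior streak, had its highest level of these in the library at Wnt3a 72 h, 12.7 CPM against 1 count at 0 h, with 1.20 CPM at CHIR 72 h and 0.666 at bcat 72 h. As early as 8 h 3 of the 11 listed factors rose in each arm. At 8 h 1 fell with CHIR99021, 0 with Wnt3a and 3 in the bcat arm, or 1 there without the 4 libraries in doubt. The share of all genes called at 8 h was 20.9%, 3.45% and 18.7% in these arms, so that the same count stands against very different backgrounds. Without those libraries no count at 72 or 120 h given here for these lists moved by more than 1 gene.

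Of 12 epithelial regulators, all tested, 1 rose and 7 fell at CHIR 72 h, 2 rose and 5 fell at Wnt3a 72 h and 0 rose and 10 fell at bcat 72 h. Their medians were -1.51, -1.09 (-0.77 with 1 gene at 0 counts set to the same bound) and -2.30 against 0.00, 0.01 and 0.06 for all genes. At Wnt3a 120 h 6 rose and 4 fell, with a median of 0.49 against 0.00 for all genes. ELF3, an epithelial ETS factor, had 5.60 CPM at Wnt3a 72 h against 3.15 at 0 h (0.85 ± 0.27, adjusted p = 0.0283). ELF3 fell to 0.725 CPM at CHIR 72 h, against 4.45 at 0 h (-2.65 ± 0.26, adjusted p = 1.92e-09), and to 0.434 CPM at bcat 72 h, against 12.9 at 0 h (-4.91 ± 0.32, adjusted p = 3.15e-13). KLF5, a factor of epithelia and of pluripotent cells, rose at Wnt3a 72 h to 11.2 CPM against 1.16 at 0 h (3.40 ± 0.45, adjusted p = 2.13e-06) and at CHIR 72 h to 4.05 CPM against 1.52 (1.53 ± 0.37, adjusted p = 0.00217). With induced beta-catenin KLF5 had 2.14 CPM at 72 h against 1.77 at 0 h (0.15 ± 0.52, adjusted p = 0.885). OVOL1, which keeps epithelial cells from becoming mesenchymal, fell at 72 h in all 3 arms, with changes of -1.46 ± 0.36, -3.24 ± 0.53 and -4.02 ± 0.56 with CHIR99021, Wnt3a and in the bcat arm (adjusted p = 0.00298, 3.36e-05 and 1.49e-06).

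Among 15 partners and processing enzymes of EPCAM 14 were tested, and 2 rose and 8 fell at CHIR 72 h, 0 rose and 6 fell at Wnt3a 72 h and 3 rose and 9 fell at bcat 72 h. The medians were -0.62, -0.48 and -0.93. CLDN7, the claudin that binds EPCAM directly, fell in all 3 arms, also where EPCAM was not called. It had 18.7 CPM at Wnt3a 72 h and 24.9 at 120 h, against 70.6 at 0 h (-1.93 ± 0.20 and -1.52 ± 0.16, adjusted p = 1.79e-08 and 8.64e-09). CLDN7 had 8.01 CPM at CHIR 72 h against 73.9 at 0 h (-3.24 ± 0.17, adjusted p = 1.34e-15) and 6.48 CPM at bcat 72 h against 63.3 at 0 h (-3.30 ± 0.19, adjusted p = 1.16e-14). CLDN1, a claudin of epithelial tight junctions, fell to 1.76 CPM at CHIR 72 h, against 6.97 at 0 h, and to 0.936 CPM at bcat 72 h, against 11.3 at 0 h. CLDN1 had 4.41 CPM at Wnt3a 72 h against 4.95 at 0 h (adjusted p = 0.601). Of 10 catenins and linkers that bind cadherin tails, 1 rose and 4 fell at CHIR 72 h, 0 and 1 at Wnt3a 72 h and 2 and 1 at bcat 72 h, with medians of -0.37, 0.04 and -0.06. The shares called with Wnt3a and in the bcat arm were near those of all genes. CTNNA3, an alpha-catenin best known from heart muscle, rose to 13.3 CPM at CHIR 72 h, against 0.743 at 0 h, and to 10.3 CPM at bcat 72 h, against 1.11 at 0 h. It had 3.05 CPM at Wnt3a 72 h against 6.24 at 0 h (adjusted p = 0.295). CTNNB1 itself was lower at CHIR 72 h, 498 CPM against 789 at 0 h (-0.66 ± 0.10, adjusted p = 6.71e-06). Of 13 other classical cadherins 4 rose and 1 fell at CHIR 72 h, 5 and 1 at Wnt3a 72 h and 5 and 2 at bcat 72 h, with medians of 0.36, 1.13 and 1.19 (0.79 with 2 genes at 0 counts set to their bound). CDH10, a type II cadherin, had 15.4 CPM at CHIR 72 h against 0.608 at 0 h, 3.18 at Wnt3a 72 h against 0.117 and 11.7 at bcat 72 h against 0.214 (4 counts). Of 20 atypical, desmosomal and 7D cadherins and protocadherins 19 were tested, and 9 rose and 2 fell at CHIR 72 h, 7 and 3 at Wnt3a 72 h and 7 and 2 at bcat 72 h, with medians of 0.36, -0.06 and -0.01. PCDH10, a protocadherin, was highest with Wnt3a, 196 CPM at 72 h against 6.404 at 0 h (4.81 ± 0.31, adjusted p = 3.43e-11). PCDH19, another protocadherin, rose in all 3 arms at 72 h, by 3.63 ± 0.51, 3.60 ± 0.69 and 3.39 ± 0.52 with CHIR99021, Wnt3a and in the bcat arm (adjusted p = 6.94e-06, 6.04e-04 and 2.24e-05).

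Over the 37 libraries the signs of the correlations separated CDH1, CDH3 and EPCAM from CDH2, CDH11 and CDH6. Levels within an arm did not always follow this division. At Wnt3a 120 h EPCAM had 166 and 153 CPM, above 113 and 144 at 0 h. The Pearson correlation of log2 CPM was 0.92 for CDH1 with CDH3 and 0.82 for CDH1 with EPCAM. It was 0.84 for CDH2 with CDH11, 0.54 for CDH2 with CDH6 and -0.73 for CDH1 with CDH2. Of all 13759 genes with a mean of at least 5 CPM in some group, CDH3 ranked 2 in likeness to CDH1 and CDH1 ranked 3 in likeness to CDH3. The first for CDH1 was MACC1 (0.94), named for metastasis in colon cancer. For CDH3 the first were KDF1 and AP1M2 (0.94 and 0.93), the second an adaptor subunit of epithelial sorting. EPCAM was most like MAL2, a membrane protein of polarised epithelia (0.94), PLA2G16 (0.92) and ESRP1, an epithelial splicing factor (0.92). CDH2 was most like APLNR, the apelin receptor of early mesoderm (0.95), HHAT (0.94) and ZNF436 (0.93). CDH11 was most like DKK1, a secreted WNT antagonist (0.94), EPHA4 (0.93) and HHIPL2 (0.93). CDH6 was most like 3 genes of 1 cluster, HOXB6 (0.91), HOXB9 (0.90) and HOXB7 (0.90). These correlations are descriptions over libraries that share arms, hours and depth.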

How the data were processed

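H9 libraries were prepared with a stranded total RNA kit, per the labels' protocols, and transcripts were quantified with kallisto 0.43.0, per the submitters' processing notes. Not given in the sources used here are the genome build, the annotation and how transcripts became genes. The authors deposited 1 table of estimated counts for 43412 gene symbols (27 of them turned into dates) in 38 libraries. The deposited estimated counts of each library are spaced by a constant of its own, from 0.265 to 6.58. They were divided by it and rounded, after which 56.9% to 81.3% of values up to 20 counts had been within 0.1 of a whole number. Identical Wnt3a 72 h columns were counted once. A fit of all 37 libraries by group was made with edgeR 4.0.16 (R 4.3.3, limma 3.58.1): filterByExpr, TMM scaling, robust quasi-likelihood tests, and Benjamini-Hochberg adjustment over the 24304 genes of each comparison, called below 0.05. Log2 changes are given ± standard error. CPM uses the TMM-scaled library size, and CPM per kb divides it by the length of GENCODE's principal transcript. The tests were checked on simulated data. Depth and library pairs limit precision, and intervals cover the libraries at hand.

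The text names the 6 members, the 3 genes most correlated with each over all libraries among 13759 genes reaching a group mean of 5 CPM, and at most 3 genes per list with the largest called change at 72 h. The members and lists were chosen with earlier results of these data known. Some list genes are not reported here and stay out of the lists' counts and sums. CTNNB1 is named besides as the induced gene. Alternatives were DESeq2 1.42.0 (size factors and Wald test), no filter, deposited values, ribosomal RNA left out, the libraries of the compared arms only, no libraries in doubt, a replicate block, other pseudocounts for ratios and each library left out in turn. CPM by column total was tried for levels only.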

Additional observations from a re-analysis of the deposited data

Results flagged for a closer look

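Of 78 differences between arms in a gene's log2 change from 0 h, 33 had an adjusted p below 0.05 when the difference itself was tested, by edgeR's quasi-likelihood test with Benjamini-Hochberg adjustment over all genes, and these are given here for completeness. Each rests on 2 libraries per group, or on 1 at Wnt3a 72 h, so that no group is large enough for a search for outlying libraries.

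With CHIR99021 minus Wnt3a, CDH2 differed by -0.63 at 8 h. CDH11 differed by 1.19 at 24 h. At 48 h CDH1 differed by -3.49, CDH3 by -1.71, EPCAM by -3.43, CDH6 by 3.96 and CDH11 by 3.17. At 72 h CDH11 differed by 1.89 and EPCAM by -0.91. The call of CDH2 at 8 h was lost without any one of CHIR 0 h replicate 2 (-0.55), CHIR 8 h replicate 2 (-0.52), Wnt3a 0 h replicate 1 (-0.52), Wnt3a 8 h replicate 1 (-0.67) and Wnt3a 8 h replicate 2 (-0.57). That of CDH11 at 24 h was lost without CHIR 0 h replicate 2 (1.05), Wnt3a 0 h replicate 2 (0.68) or Wnt3a 24 h replicate 1 (1.01), and that at 72 h without Wnt3a 0 h replicate 2 (1.38). CDH6 at 48 h was 4.94 without Wnt3a 0 h replicate 2 and 4.56 without Wnt3a 48 h replicate 2.

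With CHIR99021 minus bcat, CDH11 differed by 1.70 at 8 h, 1.20 at 16 h and 1.51 at 24 h, and CDH2 by 0.74 at 24 h. At 48 h CDH1 differed by -2.56, CDH3 by -0.61, EPCAM by -1.78, CDH6 by 1.77 and CDH11 by 4.18. At 72 h CDH1 differed by 1.29, CDH3 by 1.14, EPCAM by 1.48, CDH6 by -3.20 and CDH11 by 1.04. Calls that depended on 1 library were CDH11 at 16 h, which was lost at 0.98 to 1.33 without CHIR 0 h replicate 1 or 2, CHIR 16 h replicate 2, bcat 0 h replicate 1 or bcat 16 h replicate 2. CDH11 at 72 h was lost at 0.82 to 0.90 without bcat 0 h replicate 1, bcat 72 h replicate 1, CHIR 0 h replicate 2 or CHIR 72 h replicate 1. CDH2 at 24 h was lost at 0.67 and 0.68 without bcat 24 h replicate 2 or CHIR 0 h replicate 1, and CDH3 at 48 h at -0.52 and -0.54 without bcat 48 h replicate 1 or CHIR 48 h replicate 2. CDH6 at 48 h was lost, at 1.12 to 1.95, without bcat 0 h replicate 1 or 2, bcat 48 h replicate 2, CHIR 0 h replicate 1 or 2 or CHIR 48 h replicate 1 or 2, and was 2.38 and called without bcat 48 h replicate 1. CDH6 at 72 h was -3.85 without bcat 0 h replicate 2. CDH11 at 24 h was lost, at 1.26, without the 4 libraries in doubt.

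With Wnt3a minus bcat, CDH11 differed by 1.27 at 8 h. At 48 h CDH1 differed by 0.92, CDH3 by 1.10, EPCAM by 1.65, CDH6 by -2.18 and CDH11 by 1.02. At 72 h CDH1 differed by 1.14, CDH3 by 0.85, EPCAM by 2.38 and CDH6 by -4.74. CDH11 lost its call at 8 h, at 1.05 to 1.79, without bcat 0 h replicate 1, bcat 8 h replicate 1, Wnt3a 0 h replicate 1 or 2 or Wnt3a 8 h replicate 1. At 48 h CDH11 lost it, at 0.79 to 1.53, without bcat 0 h replicate 1, bcat 48 h replicate 2, Wnt3a 0 h replicate 1 or 2 or Wnt3a 48 h replicate 1. CDH1 lost its call at 48 h, at 0.71 to 0.87, without bcat 0 h replicate 1, bcat 48 h replicate 1, Wnt3a 0 h replicate 1 or Wnt3a 48 h replicate 2, and at 72 h without bcat 0 h replicate 1 (0.95) or bcat 72 h replicate 1 (1.04). CDH6 at 48 h lost it, at -1.57 to -2.83, without bcat 0 h replicate 1 or 2, bcat 48 h replicate 1 or Wnt3a 48 h replicate 1, and was -3.17 and -2.81 and called without Wnt3a 0 h replicate 2 or Wnt3a 48 h replicate 2. CDH6 at 72 h was -5.38 without bcat 0 h replicate 2 and -5.72 without Wnt3a 0 h replicate 2.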

How the results depend on the processing

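Member calls under 8 other settings ran from 17 to 20 with CHIR99021 (18 in the report), 17 to 23 with Wnt3a (19), 14 to 18 in the bcat arm (15), 24 to 38 between arms (33) and 36 to 44 over steps (38). Untreated cultures gave 8 calls, 5 without the 4 libraries in doubt and 6 to 10 in the other settings. Leaving out 1 library at a time gave 17 to 18, 16 to 21, 15 to 15, 25 to 34, 35 to 40 and 4 to 8 calls in the same order, the 4 without bcat 0 h replicate 1. Single values were recomputed for the 131 called results and for 13 results named without a call. Of these 1848 values 1709 kept direction and call, 121 lost the call and 11 gained one. The other 7, all of results that were not called, changed sign. Further uncalled results were left out, so 11 is not the number of all gained calls. Without the 4 libraries in doubt EPCAM at Wnt3a 48 h was -0.000603, and the 48 h difference of CDH2 between Wnt3a and bcat was -0.14. Leaving out 1 library at a time, EPCAM ranged from -0.30 to 0.0373 at Wnt3a 24 h, from -0.00497 to 0.337 at 48 h and from -0.233 to 0.112 at 96 h. The 48 h difference of CDH2 ranged from -0.0549 to 0.204 between CHIR99021 and Wnt3a and from -0.0837 to 0.290 between Wnt3a and bcat. The values past 0 came without Wnt3a 0 h replicate 1 for EPCAM at 48 h, without Wnt3a 0 h replicate 2 for EPCAM at 24 and 96 h and for the first difference, and without bcat 48 h replicate 2 for the second. The cause was not tested. With a pseudocount of 5 the mean log2 ratio of CDH2 to CDH1 at Wnt3a 0 h was -2.82, against -2.86.

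Over 15 pairs of groups per arm, correlations of replicate differences ran from -0.083 to 0.111, so no pairing by replicate number was seen. These correlations cannot exclude such pairing, because counting noise in weakly expressed genes can lower them. With the replicate block the calls numbered 17 with CHIR99021, 19 with Wnt3a, 15 in the bcat arm, 35 between arms, 38 over steps and 8 in untreated cultures.

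DESeq2's size factors moved the median log2 change of all genes by up to 0.122, and by over 0.1 in 4 of 45 comparisons, and no called member changed sign under any setting. Counts over all genes moved by over 1.5 times in 21 cases, with ratios of 0.380 to 2.22, as at bcat 24 h, where 3117 genes were called and 1616 without the 4 libraries in doubt. With Wnt3a 8 h, 839 were called, and 540 in a fit of that arm alone. Leaving out the single Wnt3a 72 h library leaves no value there. Using the values as deposited, without the rescaling, moved CDH6 by over 1.5 times in 3 differences, to 4.60 for CHIR99021 minus Wnt3a at 48 h and to -2.87 at 48 h and -5.35 at 72 h for Wnt3a minus bcat.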
